A study of Mus musculus with 3 samples.

Results

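The Ly6 cluster of mouse chromosome 15 holds a run of related genes, among them Ly6a, which encodes Sca1, a surface protein used to purify blood stem and progenitor cells. CTCF binding across this cluster was taken from 1 chromatin immunoprecipitation sequencing (ChIP-seq) library. The cells were LSK cells, a bone marrow population that lacks lineage markers and carries both Sca1 and the receptor cKit, from adult C57BL6 mice. They were sorted as positive for cKit and Sca1 and as negative for Ter119, CD45R, Ly6g, CD11b, IL7Ra, CD8 and CD4, so the product of Ly6a was selected for and that of Ly6g against. LSK cells are a mixture of stem cells and multipotent progenitors, and the sources used here do not give the number of animals behind the library. Chromatin was isolated with a CTCF antibody from Millipore. An LSK input and an input from megakaryocyte erythroid progenitors, from the same strain and without antibody, were not analysed here.

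The interval was set by 10 listed genes, which are Ly6a, Ly6c1, Ly6c2, Ly6d, Ly6e, Ly6g, Ly6h, Ly6i, Ly6k and Lynx1, with 100 kb added on either side of the first and the last. In the mm10 build it ran over chr15:74647852-75667255, a length of 1019404 bp, and held 31 of the 18945 CTCF peaks of the library. Only 1 library was available, so there were no replicates, no p-value compares groups, and every interval given below covers counting error alone. At the lower edge, the last peak before the interval had a fold enrichment of 8.16 and the first one inside had 13.7. At the upper edge, the last peak inside had a fold enrichment of 6.53 and the first one beyond had 15.99. Fold enrichment is the ratio of reads in a peak to the background that the peak caller computed.

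CTCF is a zinc finger protein that binds DNA through a long motif with a conserved core, and it acts with cohesin at the anchors of chromatin loops and at domain boundaries. The orientation of the motif matters for looping, since loop anchors usually carry motifs that face each other. Ly6 proteins are small, with a fold held by disulfide bonds, and most are tethered to the cell surface by a lipid anchor. The genes arose by tandem duplication, and some of them mark blood cell types. Ly6a marks stem and progenitor cells, and Ly6c1 and Ly6c2 encode the Ly6C antigens of monocytes and other cells. Ly6g marks neutrophils, and Ly6d marks early lymphoid progenitors.

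Comparing the sequence under the peaks showed that 17 of the 31 peaks lay on copies of only 2 elements, here called A and B, and the other 14 on sequence of their own. The sequences of chosen copies are shown first, because 17 of the 31 peaks lay on copies of these elements. Each run of bases is read from the RefSeq GRCm38.p6 genome on the strand of the motif, the position in mm10 is that of the whole run, and the capitals mark the bases aligned with the 12-base core CTCF motif. The A copies show an intact core with a peak, the same bases without a peak, and a core with a change.
A1 (chr15:75019743-75019770, minus strand, peak): ctgcttggCCAGCAGGTGGCagattctc
A3 (chr15:75088233-75088260, minus strand, no peak): ctgcttggCCAGCAGGTGGCagattctc
A4 (chr15:75120247-75120274, plus strand, peak): ctccttggCCAGCAGGTGGCaggttctc
A8 (chr15:75317445-75317472, plus strand, peak): ctctttgtCCAGGAGGTGGCatatactc
A10 (chr15:75406357-75406384, minus strand, no peak): ctcattggCCAGCAGGTAGCaggttctc
A11 (chr15:75444953-75444980, plus strand, no peak): ctccttgtCCAGCAGGTGGCattttctc
A12 (chr15:75470145-75470172, plus strand, peak): ctccttgtCCAGCAGGTGGCattttctc
The B copies show the site nearest to Ly6a (B1), the neighbour of A1 (B2) and its look-alike without a peak (B4), a copy with a peak and a further change (B11), and a copy that lost a base (B9, where the capitals cover 11 bases).
B1 (chr15:74992916-74992943, plus strand, peak): ggggagcgCCCCTAGAGGCCgaatgtag
B2 (chr15:75021230-75021257, minus strand, peak): gatgagctCCCCTAGAGGCCgaatgtag
B4 (chr15:75089674-75089701, minus strand, no peak): gatgagctCCCCTAGAGGCCgaatgtag
B9 (chr15:75316138-75316164, plus strand, no peak): gaggagtgCCCTTAGGACAgaatttag
B11 (chr15:75407755-75407782, minus strand, peak): gaggagcgCCCCTAGAGGCAgaatttag

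The cluster was dense in CTCF peaks. Its 31 peaks corresponded to 30.4 peaks per Mb (exact Poisson 95% interval 20.7 to 43.2), against 7.85 per Mb over the rest of chromosome 15 and 7.19 per Mb over all chromosomes. When all chromosomes were divided into 2572 windows of the same length, the median window held 5 peaks and 36 windows (1.40%) held 31 or more. The 14 peaks outside the copied elements alone gave 13.7 per Mb (7.51 to 23.0). Among other clusters of surface receptor genes, the Slam receptor interval on chromosome 1 (6 genes by the same rule) had 20.2 peaks per Mb (10.4 to 35.3, 12 peaks). The Kit receptor interval on chromosome 5 (3 genes) had 7.80 peaks per Mb (3.37 to 15.4, 8 peaks).

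**Figure D1:**
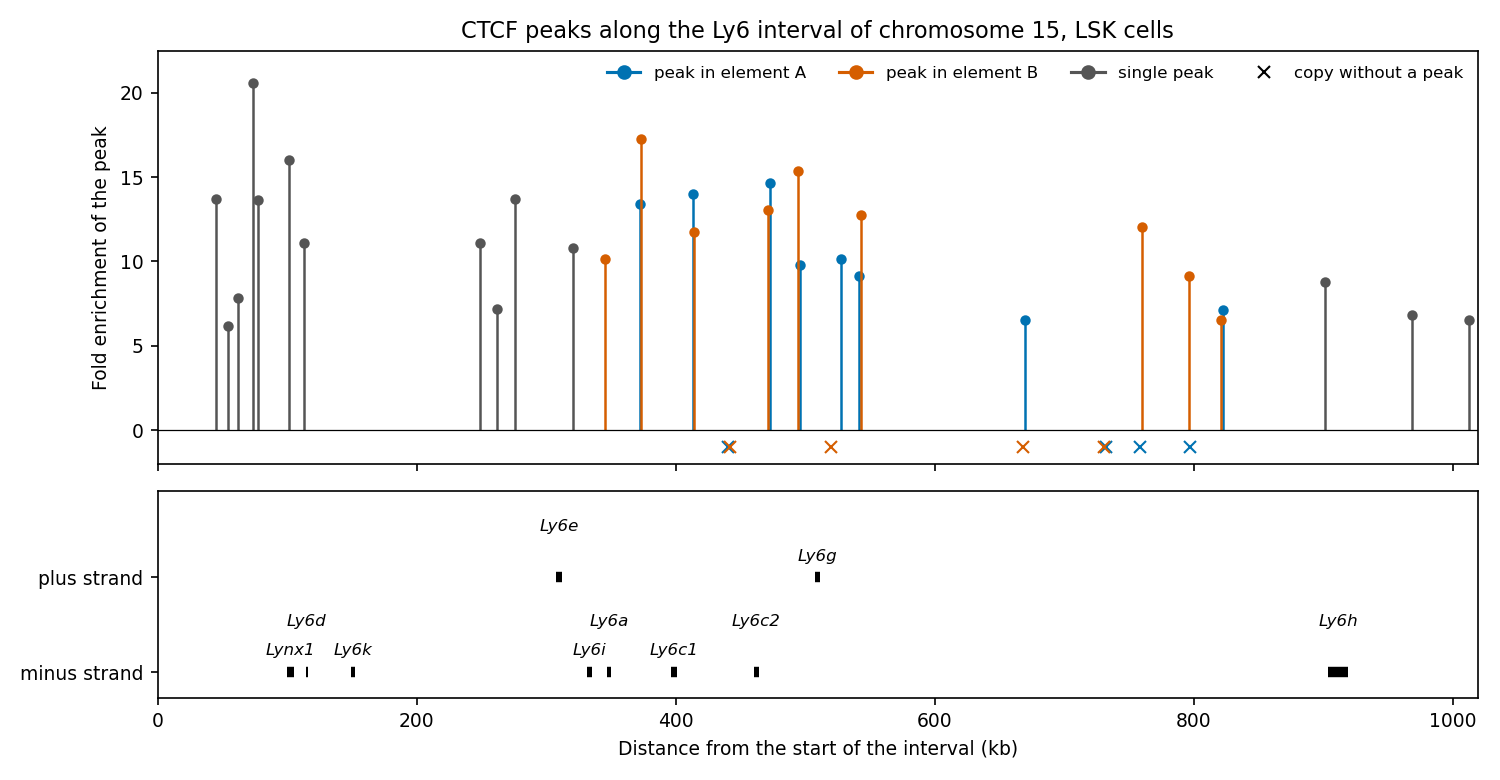
Map of the Ly6 interval, with the distance from its start in kb on the horizontal axis and the fold enrichment of each of the 31 CTCF peaks on the vertical axis of the upper panel. Blue and orange stems are peaks in elements A and B, grey stems are the 14 single peaks, crosses mark the 8 copies without a peak, and the lower panel shows the 10 listed genes by strand. The copies lie between positions 74992813 and 75470455, and the single peaks lie on either side of that stretch, some of them between listed genes.

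The strength of the interval's peaks lay near that of all peaks. Their fold enrichment ranged from 6.20 to 20.56 with a median of 11.09, beside a median of 10.12 over all peaks. Peaks in element A had a fold enrichment from 6.53 to 14.68 (median 9.95, 8 peaks), those in element B from 6.53 to 17.29 (median 12.03, 9 peaks), and the single peaks from 6.20 to 20.56 (median 10.93, 14 peaks). The 3 groups overlapped over most of their range.

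The core motif was searched on both strands, with all 12 positions as given by the consensus known for CTCF. It was found in 10 of the 31 peaks, or 32.3% (exact binomial 95% interval 16.7 to 51.4), beside 35.6% of all peaks. With 1 mismatch allowed it was found in 24 peaks (77.4%), beside 83.6% of all peaks. The pooled share with the motif was thus close to the background by either of these rules. Without a mismatch it combined unlike groups: 7 of 8 peaks in element A, 0 of 9 in element B and 3 of 14 single peaks. Peaks on copies of 1 element share their sequence, and the interval above counts them as separate. The pooled share was lower than the background by a weight matrix built on sites in peaks of the other chromosomes. That matrix gave a site in 13 of the 31 peaks (41.9%), beside 13868 of all 18945 peaks. In 28 of the 31 peaks the site with the fewest mismatches was within 100 bp of the middle of the peak (90.3%), beside 91.5% of all peaks.

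Close spacing and similarity to a neighbour were more frequent in the interval than over all peaks. Another peak lay less than 1 kb away for 12 of 31 peaks (38.7%, 21.8 to 57.8), beside 6.43% of all peaks. The share was 25% in both the Slam receptor interval (3 of 12 peaks, 5.49 to 57.2) and the Kit receptor interval (2 of 8 peaks, 3.19 to 65.1), so these small clusters overlapped the Ly6 interval in this feature. A like peak, meaning one on the same chromosome within 1 Mb whose sequence aligned over at least 200 bp including the middle, was found for 17 of 31 peaks (54.8%, 36.0 to 72.7), beside 3.15% of all peaks. None of the 12 peaks of the Slam receptor interval and none of the 8 of the Kit receptor interval had such a like peak, which allows a share of up to 25% and 37.5%, taking 3 counts as the limit for a count of 0.

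**Figure D2:**
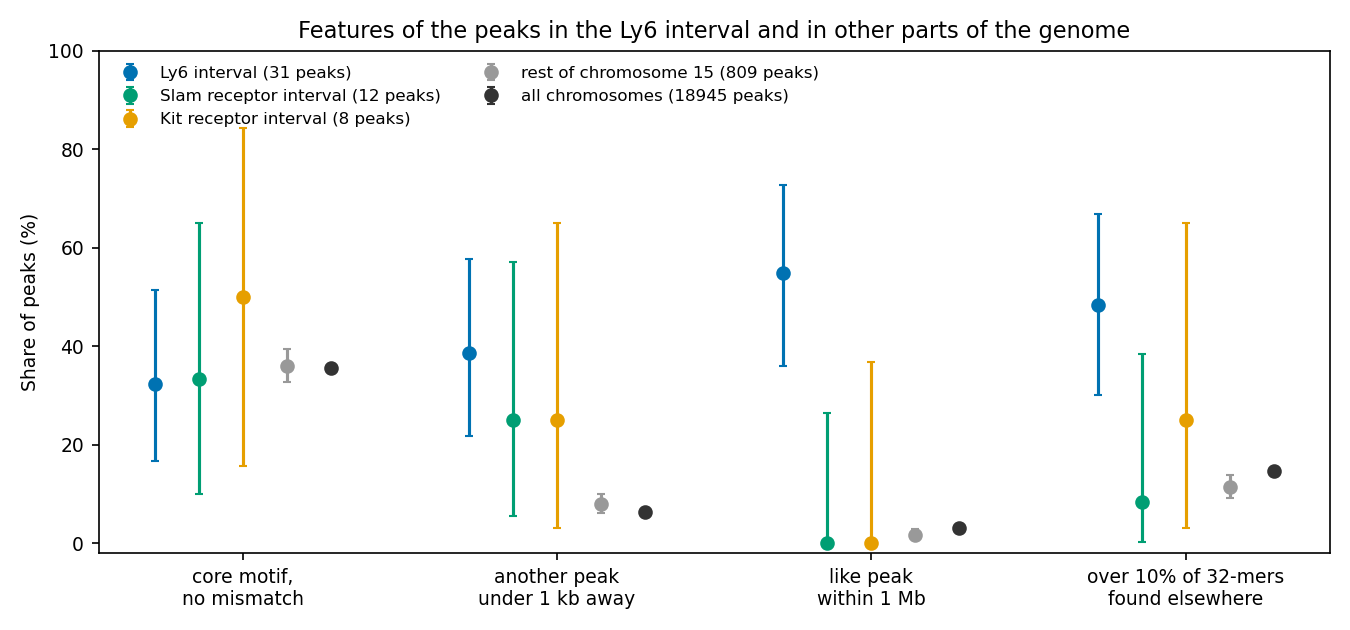
Share of peaks in percent for 4 features, in the Ly6 interval, the Slam and Kit receptor intervals, the rest of chromosome 15 and all chromosomes. Points are shares and bars are exact binomial 95% intervals. The Ly6 interval overlapped the others for the core motif without a mismatch (32.3%). It was above the rest of chromosome 15 for close neighbours (38.7%), like peaks (54.8%) and repeated 32-mers (48.4%). The wide bars of the Slam and Kit intervals overlapped its own for close neighbours and repeated 32-mers. For like peaks the Kit bar (up to 36.9%) reached the lower end of the Ly6 bar (36.0%). The Slam bar (up to 26.5%) did not.

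Element A occurred 12 times in the interval, from position 75019453 to 75470455, and 8 of the copies lay under a peak. The copies were 76.9% to 96.8% identical to A1, the copy with the highest −log10 p-value of all 31 peaks (34.5). No copy of A or B, by the same alignment rule, was found elsewhere in the genome. A perfect core was present in 9 of the 12 A copies, and 7 of those 9 had a peak. The same 12 bases occurred at 1053 places outside the interval, and 34.7% of those places were under a peak. Elements A and B were defined from sequence shared by peaks, which favours copies with a peak. The shares of copies and of places elsewhere are therefore not like for like.

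The A copies differed in fold enrichment along the cluster. A1, A2 and A4, which lie between Ly6a and the region beyond Ly6c2, had a fold enrichment of 13.38, 14.03 and 14.68. A5, A6 and A7, which lie on either side of Ly6g, had 9.79, 10.12 and 9.14. A8 and A12, farther toward Ly6h, had the lowest values with 6.53 and 7.14. A8 was the only A copy with a changed core and a peak. A9 and A10, with 1 change each in the core (G10A in A10, counted from the first base of the core), had none.

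An intact site was not always accompanied by a peak. A3 carried the same 28 bases as A1 and was 96.8% identical to it over the whole element, yet no peak was listed there and A1 had a fold enrichment of 13.38. A11 carried the same 28 bases as A12 and had no peak either, while A12 had a fold enrichment of 7.14. In these pairs, binding at a copy and the placement of reads among like copies cannot be told apart.

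Element B occurred 13 times, from position 74992813 to 75469342, and 9 copies lay under a peak. Its site never matched the core motif in full. In 12 of the 13 copies the core differed from the consensus by G11C, and the remaining copy, B9, had lost a base of the core. The most frequent core of B, present in 5 copies of which 4 had a peak, occurred at 254 places outside the interval. It was under a peak at 8.27% of them, a share that, as for A, is not like for like. C12A was present in 4 B copies in addition to G11C.

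The B copies had a fold enrichment of 10.12 at B1, 17.29 at B2, 11.75 at B3, 13.05 at B5 and 15.34 at B6. Toward Ly6h they had 12.73 at B8, 12.03 at B11, 9.14 at B12 and 6.53 at B13. B2, the strongest, lay next to A1, and B13, the weakest, next to A12. Copies without a peak were B4, B7, B9 and B10. B4 carried the same 28 bases as B2 and was 94.4% identical to it. B7 had the same core as B6, B9 lacked a base and B10 had 4 changes in the core.

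A and B came as a unit. In 11 places an A and a B copy lay 1122 to 1778 bp apart (median 1441 bp), and in all 11 the sites were on the same strand. The strand of a copy was taken from its alignment to A1 or B2. At B8 and B11, given as minus, and at B13, given as plus, the peak also held a site on the other strand with as many mismatches (2). The shared strand of the units is thus that of the aligned sequence. Both copies had a peak in 6 units, 1 of them in 3 units and neither in 2 units. All 6 pairs of peaks less than 1 kb apart were an A and a B peak of the same unit. The B peak had the higher fold enrichment in 3 of these 6 units and the A peak in the other 3. The units ran in both directions: 7 of the 12 A copies faced the plus strand and 5 the minus strand.

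**Figure D3:**
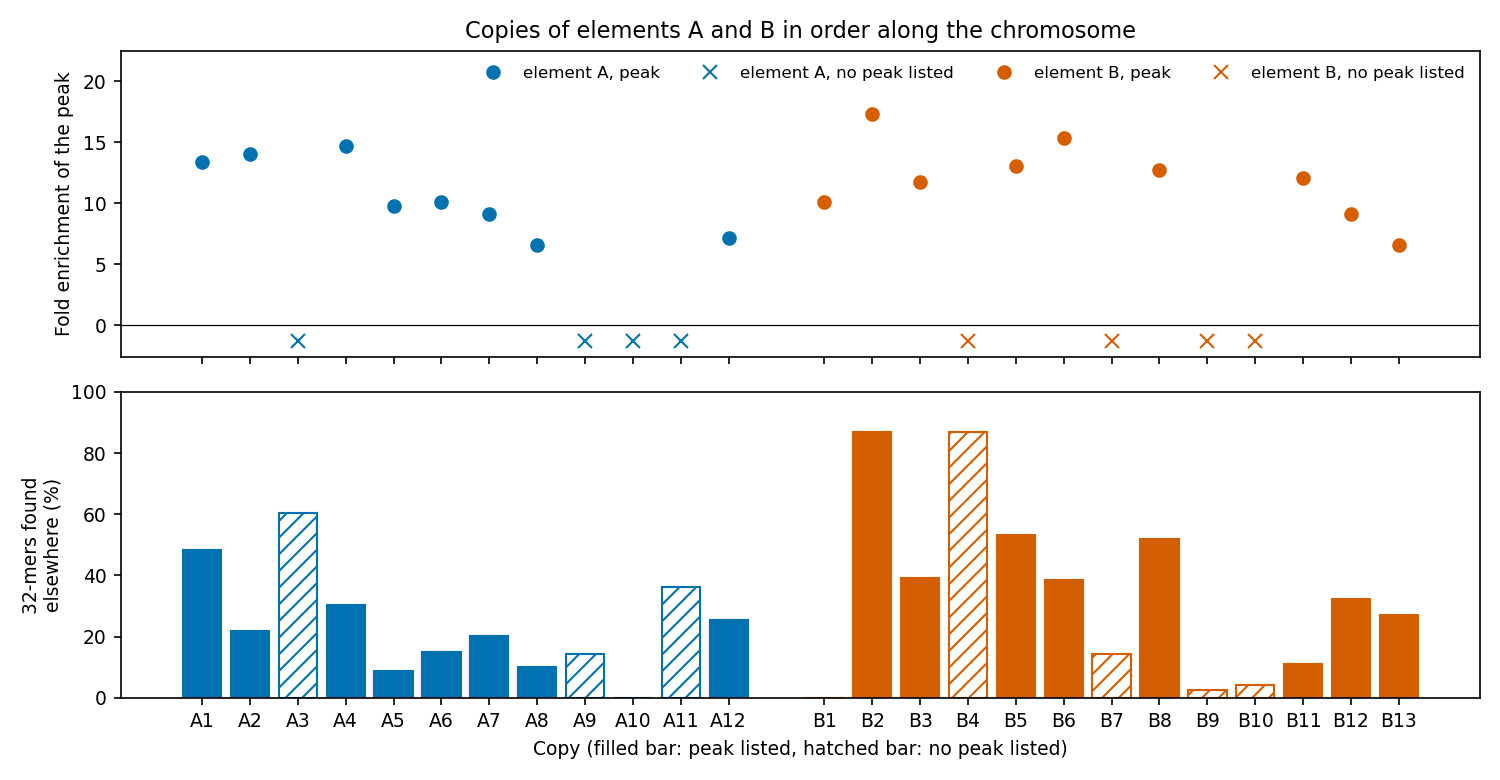
Fold enrichment of the peak at each copy of elements A and B in order along the chromosome (upper panel), with crosses for copies without a listed peak, and the share of 32-mers in a 401 bp window on the site that occur elsewhere in the genome, in percent (lower panel). Filled bars are copies with a peak and hatched bars are copies without. A3 and B4, without peaks, had 60.3% and 87.0% of such words, and A1 and B2, with peaks, had 48.4% and 86.8%, while A10 and B1 had none.

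Reads that map to several places were kept by the authors, and the copies are alike enough for this to bear on the peaks. Of all 32-base words in the interval, 24.4% also occur elsewhere in the genome. Over 10% of the words under a peak did so in 15 of 31 peaks (48.4%), beside 14.7% of all peaks, 1 of 12 in the Slam receptor interval and 2 of 8 in the Kit receptor interval. Over 50% did so in 3 peaks (A1, B2 and the peak at B5), beside 2.85% of all peaks. In a 401 bp window on the site, the share ran from 8.65% to 48.4% in A copies with a peak and from 0% to 60.3% in those without. In B copies it ran from 0% to 86.8% with a peak and from 2.43% to 87.0% without, so the ranges overlapped. The part of such repeated words in the presence or height of any given peak was not tested. Leaving out the 10 peaks with over 25% of such words left 21 peaks in the interval, with a median fold enrichment of 10.12.

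None of the 31 peaks was made mostly of repeats, with over 50% of its bases masked in the reference, beside 6.19% of all peaks. By the same limit of 3 counts, 0 of 31 allows a share of up to 9.68%.

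Ly6a, the gene of Sca1, had its nearest CTCF peak 4729 bp downstream of its start, beyond the end of the gene. This peak covered B1 at chr15:74992556-74993302, was intergenic, and reached 10.12 in fold enrichment with 15.4 as its −log10 p-value. It was also the nearest peak to Ly6i, whose start lay 9126 bp away on the other side. B1 had no A partner, as was also the case for B7, and no 32-base word within its 401 bp window occurs elsewhere, as for A10. Over the whole peak, 18.2% of the words did. The next peaks beyond Ly6a were those of A1 and B2, 21422 bp and 22804 bp from its start.

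Of the 10 listed genes, 5 had a peak within 10 kb of the start, beside 29.3% of the 21755 protein-coding genes. None had a peak within 1 kb (8.59% of coding genes) and all 10 had one within 50 kb (67.7% of coding genes). Ly6d had the nearest peak, 2452 bp from its start and past its end, with a fold enrichment of 11.09. Lynx1, whose product modulates nicotinic acetylcholine receptors, was the only listed gene with a peak inside it. That peak, at chr15:74748943-74749748, had a fold enrichment of 15.99 and lay in an untranslated exon, 3298 bp from the start.

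Like Ly6a and Ly6i, the antigen genes of myeloid cells had their nearest peaks in the copied elements. Ly6c2 had B5 6547 bp upstream of its start with a fold enrichment of 13.05. Ly6c1 had A2 11666 bp upstream with a fold enrichment of 14.03. Ly6g had A5 10926 bp upstream with a fold enrichment of 9.79. No peak lay within any of these 3 genes.

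The other 3 listed genes had single peaks nearest to them. Ly6e, a gene of broad expression, had its nearest peak 13039 bp downstream of its start with a fold enrichment of 10.77. Ly6h, known from the brain, had one 17820 bp downstream with a fold enrichment of 8.81. Ly6k, known from the testis, was the farthest, 38818 bp from the peak that was also nearest to Ly6d.

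**Figure D4:**
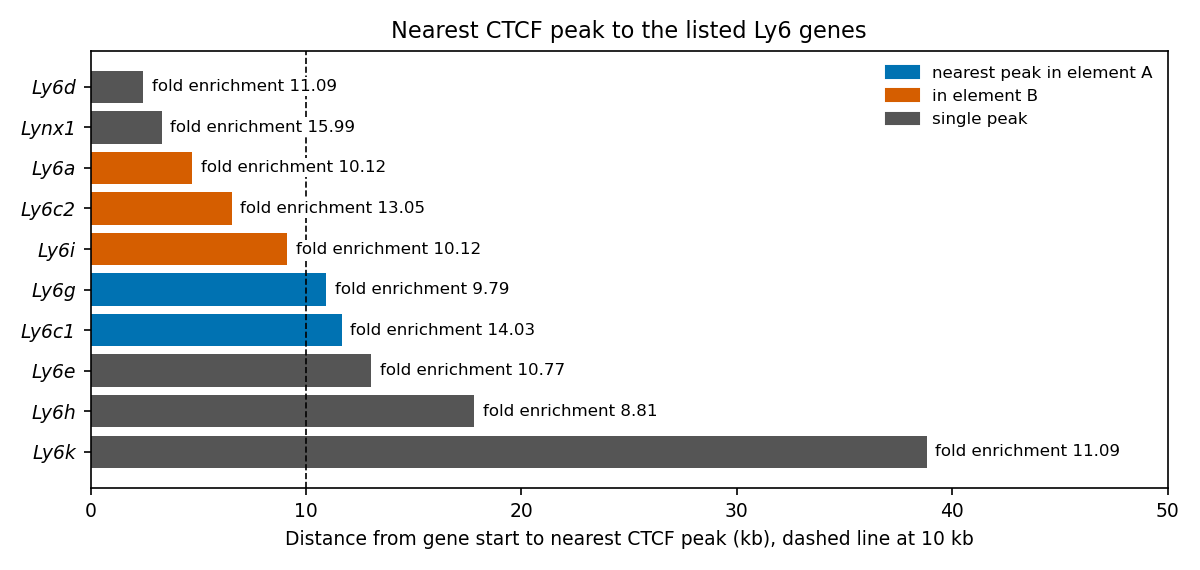
Distance in kb from the start of each of the 10 listed genes to the nearest CTCF peak, with the fold enrichment of that peak beside the bar. Bars are blue where that peak is in element A, orange where it is in element B and grey where it is a single peak, and the dashed line is at 10 kb, inside which 5 genes fall, from Ly6d at 2452 bp to Ly6i at 9126 bp.

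Single peaks lay on either side of the stretch with the copies, and some covered the starts of genes outside the Ly6 family. The strongest of the interval, with a fold enrichment of 20.56, covered the start of Them6 at chr15:74720593-74721425 and had no core site with fewer than 2 mismatches. Peaks also covered the starts of Jrk (7.83) and of the zinc finger gene Zfp41 (6.85), and a peak in an intron of Top1mt, the mitochondrial topoisomerase, had 6.53. A peak with an intact core and a fold enrichment of 11.09 lay in an intron of 2010109I03Rik, named Ly6m in RefSeq, 151 bp from its start. Its site is shown beside that of the Them6 peak, with the core in capitals and its position, for the contrast between an intact and a changed core.
Ly6m peak (chr15:74896497-74896508, plus strand): agccgttgCCACCAGGGGGCgcatgtag
Them6 peak (chr15:74721000-74721011, plus strand): gagcgccgTAGCCAGGTGGCgctgtact

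By the middle of the peak, 24 of the 31 peaks (77.4%, 58.9 to 90.4) were intergenic, beside 45.8% of all peaks. In introns there were 3 (9.68%, 2.04 to 25.8), beside 44.5%, and in exons 4 (12.9%, 3.63 to 29.8), beside 9.73%. Of the exonic ones, 3 were in untranslated exons, of Jrk, Lynx1 and Slurp1, which encodes a secreted Ly6 protein, and 1 was in an exon of the gene record Gm28068. The interval held 58 gene records in all, of which 29 were protein-coding and 21 pseudogenes. Of its coding genes, 15 (51.7%) had a peak within 10 kb of the start, beside the 29.3% given above; for Top1mt, whose start lies past the upper edge, that peak was outside the interval.

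Core sites without a peak were present as well. The interval held 21 intact core sites, of which 10 (47.6%) were under a peak, beside 30.3% of the 22944 such sites of all chromosomes. In the A copies, an element defined from peaks, 7 of 9 were under a peak, and outside the copies 3 of 12. Of the latter sites without a peak, 1 lay 101 bp from the start of Ly6d, 1 lay 109 bp from the start of Ly6k and 2 lay within Ly6h. They are shown with the core in capitals and its position because they lie at listed genes that had no peak within 1 kb.
Ly6d site (chr15:74763721-74763732, minus strand, 2553 bp from the nearest peak): ctccagtcCCTCCAGGTGGCagaagcca
Ly6k site (chr15:74799866-74799877, minus strand, 38698 bp from the nearest peak): aacggcacCCTGTAGGGGGCagtgtggg
Ly6h site in an intron (chr15:75555072-75555083, minus strand, 5637 bp from the nearest peak): actggataCCAGCAGAGGGCtatgaact
Ly6h site in an untranslated exon (chr15:75557939-75557950, minus strand, 8504 bp from the nearest peak): gcagctagCCAGCAGGGGGCtctcccca

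The longest stretch of the interval without a peak ran for 135039 bp from the peak beyond Ly6d to the peak at Ly6m. It held the starts of 7 coding genes, namely Ly6d, D730001G18Rik, Ly6k, Gml, Gml2 and the steroid hydroxylase genes Cyp11b1 and Cyp11b2. A second stretch of 125887 bp held BC025446 and Ly6f, and was bounded by B8 and A8.

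Orientation was read from the weight matrix built on sites in peaks of the other chromosomes. It gave a strand for 13 of the 31 peaks, of which 8 (61.5%) faced the plus strand, beside 49.6% of all peaks with such a site. Neighbouring units changed direction along the cluster: the sites of A1, A2 and A3 faced the minus strand, those of A4, A5 and A6 the plus strand, A7 the minus strand, A8 and A9 the plus strand, A10 the minus strand, and A11 and A12 the plus strand.

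Other genes of the Ly6 family gave a comparison by gene type. Of a list of 34 further genes of the same protein fold, 33 were found in the annotation, 2 of them through older symbols. In the interval 7 of 11 had a peak within 10 kb of the start, and on 6 other chromosomes 7 of 22 did, again beside 29.3% of all coding genes. Among genes with a peak within 10 kb, those with the highest fold enrichment were Lypd3 on chromosome 7 (16.31), Slurp2 (15.99, from the same peak as Lynx1), the pseudogene I830127L07Rik, named Ly6a2 in RefSeq (15.34, from B6), and Ly6g6c on chromosome 17 (13.7). Gml and Gml2 in the interval, and Lypd1 and Lypd6 elsewhere, had no peak within 50 kb.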

How the data were processed

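The deposited peak list of 1 LSK CTCF library was used. Per the methods and the submitters' processing notes, the authors mapped reads to mm10 with Bowtie (1.0.0 in the notes), kept reads with several mapping places and called peaks with MACS. The study lists read totals for the library and the LSK input as its input, but the peak list holds no counts, so the depth behind a peak was not used, and the settings of MACS are not given. The deposited fold enrichment is a ratio set by the authors' peak caller, the deposited −log10 p-value is its score for the peak, and the deposited false discovery rate (a q-value whose scale is not stated) was used for ranking only. Starts were read as counted from 0.

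Genes came from GENCODE M21 and sequence from RefSeq GRCm38.p6. The core motif was searched on both strands, and the weight matrix spanned 20 bases from 6292 sites, with a threshold reached by 5% of windows 10 kb away. Like peaks and copies were blastn alignments (BLAST 2.17.0, E-value up to 1e-10) of at least 200 bp covering the middle 100 bp of a peak, and words were 32 bases, since read length is not given here. Shares above 0 carry Clopper-Pearson and densities Poisson 95% intervals (SciPy 1.17.1). A count of 0 was given the limit of 3 counts in the text and an exact binomial bar in the figure. These cover counting error only. The scripts were tested on simulated data. Named genes were the 10 listed genes, coding genes nearest to or holding a peak, and family genes with the highest fold enrichment. The members and lists were chosen with earlier results of these data known, and elements A and B were defined after the peaks were seen. With 1 library, no test across samples was possible.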

Additional observations from a re-analysis of the deposited data

How the results depend on the processing

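Of 25 alternative values, 19 moved by less than their counting interval or stayed within 1.5 times, and 6 moved more. These counts compare a value with the main one and not with its own background. The weight matrix share of peaks with a motif (41.9%) was among the 19, but lay below its background of 13868 of all 18945 peaks. When peaks were limited to the 9472 of lowest false discovery rate, 17 of the 31 lay in the interval and 3 of the 10 listed genes had a peak within 10 kb. This cut keeps 9472 of all 18945 peaks, so the fall to 17 is close to what it does to all peaks. It kept 6 of 8 peaks in element A, 6 of 9 in element B and 5 of 14 single peaks. The share of all coding genes under this cut is not given here. Within 1 kb of the start the count of listed genes was 0, and within 50 kb it was 10. With 1 mismatch allowed the core motif was in 77.4% of the interval's peaks, beside 83.6% of all peaks. Of such sites in the interval, 10.6% were under a peak, and the share over all chromosomes is not given here. Leaving out peaks with over 25% repeated words, an alternative chosen after seeing the data, left 21 peaks and 4 genes. No paired analysis was possible because there was 1 library, and for the same reason no replicate could be left out. The peak list holds no counts, so a copy without a listed peak may still hold signal below the caller's threshold.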
